A study of Homo sapiens with 8 samples.

Results

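The genes described here are the 40 constitutive proteasome genes, which encode the subunits of the 26S proteasome, its assembly chaperones and its non-immune activators and inhibitor. They were chosen by name, by matching the gene symbols of the deposited log2 expression table, and all 40 of 40 were found among its 25066 genes. By role they were 7 genes of the 20S alpha ring, 7 of the 20S beta ring, 9 of the 19S base, 8 of the 19S lid, 3 chaperones of base assembly, 3 chaperones of core assembly, and 3 activators or inhibitors. The interferon-inducible immunoproteasome subunits were left out of the set and are given only for comparison.

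RNA was sequenced from TMD8, an established human line of diffuse large B cell lymphoma of the activated B cell-like form, in which B cell receptor signalling drives growth. Every group carried lentivirally delivered Cas9, together with a stable control guide (sgCTRL, genotype labelled KLHL14(+/+)) or a guide against KLHL14 (sgKLHL14, genotype labelled KLHL14(-/-)). Cells of each kind received the solvent DMSO or 2 nM ibrutinib, which blocks Bruton tyrosine kinase covalently, and were taken at 24 h. There were 4 groups with 2 libraries in each. The labels do not say whether the guide-bearing cells were a clone or a mixed population, nor whether replicate libraries stem from separate cultures. The p-values therefore rest on the spread between these libraries, which may be technical. KLHL14 encodes a substrate adaptor of a cullin-3 ubiquitin ligase, which marks proteins for the proteasome.

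The 26S proteasome degrades proteins tagged with ubiquitin. Its 20S core is a barrel of stacked rings, in which outer rings of alpha subunits gate the entry and inner rings of beta subunits hold the peptide-cutting sites. The 19S particle caps the barrel: its base holds a ring of ATPases that unfold the substrate and push it inward, and its lid removes the ubiquitin chain. Lymphoma and myeloma cells with a high load of protein synthesis are known to rely on it, and the catalytic subunit encoded by PSMB5 is the main target of bortezomib. When proteasome activity is short, the transcription factor encoded by NFE2L1 is known to raise the mRNAs of the subunits together, through antioxidant response elements in their promoters.

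Promoter sequences are shown for PSMA6 and PSMG1, which had the largest decreases in ibrutinib with either guide, and for the other members called lower with both guides whose promoter held a match to an antioxidant response element core, because such elements are the known shared feature of proteasome promoters. Of the 40 members 35 had an entry in the RefSeq promoter sequences (build GRCh38.p14, 250 bases before to 50 bases after the start of the gene, 300 bases each), and PSMA7, PSMB1, PSMB6, PSMB7 and PSMD4 had none. The 6 promoters lie at chr14:35292067-35292366 (plus strand), chr21:39183402-39183701 (minus strand), chr1:35641477-35641776 (minus strand), chr17:67366528-67366827 (minus strand), chr2:161308175-161308474 (plus strand) and chr2:231056617-231056916 (plus strand) for PSMA6, PSMG1, PSMB2, PSMD12, PSMD14 and PSMD1. They are written 5′ to 3′ on the strand of the gene. Capitals mark matches, on either strand, to TGACNNNGC or TGAGNNNGC (the element core and a variant, bound by NFE2L1 and NFE2L2 with small MAF partners), CCAAT (the box bound by NF-Y) and CCGGAAG (a core bound by ETS-family factors).
PSMA6: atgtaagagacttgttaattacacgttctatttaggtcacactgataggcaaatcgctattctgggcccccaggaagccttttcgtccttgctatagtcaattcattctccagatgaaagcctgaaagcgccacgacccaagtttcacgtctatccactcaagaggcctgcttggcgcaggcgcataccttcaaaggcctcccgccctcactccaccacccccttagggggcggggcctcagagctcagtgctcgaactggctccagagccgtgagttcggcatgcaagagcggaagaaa
PSMG1: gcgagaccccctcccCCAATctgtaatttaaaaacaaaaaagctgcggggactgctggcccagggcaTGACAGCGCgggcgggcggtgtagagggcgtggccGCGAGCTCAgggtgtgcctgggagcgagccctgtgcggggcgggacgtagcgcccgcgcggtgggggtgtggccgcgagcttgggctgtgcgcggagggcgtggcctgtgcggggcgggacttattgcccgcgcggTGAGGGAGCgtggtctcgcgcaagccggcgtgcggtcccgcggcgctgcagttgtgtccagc
PSMB2: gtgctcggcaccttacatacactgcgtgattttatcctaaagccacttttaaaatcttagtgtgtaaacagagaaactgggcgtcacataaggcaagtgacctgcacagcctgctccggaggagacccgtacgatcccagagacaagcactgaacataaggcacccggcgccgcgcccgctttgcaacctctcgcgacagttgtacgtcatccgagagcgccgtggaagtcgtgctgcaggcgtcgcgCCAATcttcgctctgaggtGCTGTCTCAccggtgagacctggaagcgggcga
PSMD12: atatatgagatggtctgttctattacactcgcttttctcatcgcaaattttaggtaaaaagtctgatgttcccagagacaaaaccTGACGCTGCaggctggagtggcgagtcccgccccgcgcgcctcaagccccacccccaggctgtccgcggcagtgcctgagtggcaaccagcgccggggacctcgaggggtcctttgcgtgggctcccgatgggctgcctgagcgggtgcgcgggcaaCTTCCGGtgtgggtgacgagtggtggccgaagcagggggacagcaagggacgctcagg
PSMD14: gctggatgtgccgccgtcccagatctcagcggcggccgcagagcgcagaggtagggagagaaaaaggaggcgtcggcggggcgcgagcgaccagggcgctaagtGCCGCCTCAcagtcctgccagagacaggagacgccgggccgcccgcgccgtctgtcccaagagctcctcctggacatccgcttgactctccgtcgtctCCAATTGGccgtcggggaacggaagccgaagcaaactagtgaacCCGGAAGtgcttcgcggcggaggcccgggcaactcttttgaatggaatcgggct
PSMD1: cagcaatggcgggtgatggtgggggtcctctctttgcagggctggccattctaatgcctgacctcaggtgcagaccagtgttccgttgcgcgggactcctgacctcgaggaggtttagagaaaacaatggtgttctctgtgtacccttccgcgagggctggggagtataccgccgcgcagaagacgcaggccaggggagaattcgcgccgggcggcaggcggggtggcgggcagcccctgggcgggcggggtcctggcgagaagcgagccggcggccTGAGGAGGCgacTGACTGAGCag

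PSMA6, with the largest decrease in ibrutinib with sgCTRL, had no match to any of the 4 motifs in this window. PSMG1 had a CCAAT match 235 bases before the start, a TGACNNNGC match 183 bases before it, and TGAGNNNGC matches 148 and 12 bases before it. PSMB2 held CCAAT 2 bases before and TGAGNNNGC 18 bases after the start. PSMD12 held TGACNNNGC 165 bases and CCGGAAG 8 bases before the start. PSMD14 held TGAGNNNGC 146 bases before the start. In PSMD14 a CCGGAAG match also stood 4 bases before the start, and its CCAAT matches on opposite strands, 48 and 45 bases before the start, overlap each other. PSMD1 held TGAGNNNGC and TGACNNNGC 28 and 40 bases after the start. Distances are to the first base of each match.

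Over the 35 member promoters, TGACNNNGC was found in 10 (28.6%) against 13.6% of all 27305 promoters of the same length, and TGAGNNNGC in 13 (37.1%) against 18.4%. At least 1 of these cores was present in 17 member promoters (48.6%, against 29.4% of all promoters), and CCAAT likewise in 17 (48.6%, against 35.7%). CCGGAAG was found in 12 (34.3%, against 10.7%): in 0 of the 10 core promoters with an entry and in 9 of the 16 promoters of base and lid genes. Matches can overlap each other, as in PSMA3, where CCAAT and TGAGNNNGC share a base. Among the 11 members called lower with both guides, PSMA6, PSMC1, PSMC2, PSMC6, PSMD11 and PSME3 had neither antioxidant response element core. PSMB3, PSMB5, PSMC4, PSMD5, PSMD9, PSMG2 and PSME4 had at least 1 and were called with neither guide. A link between the cores and the decreases was not tested. A match is a string of letters and not a shown binding site.

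Depth ran from 12333876 to 23467110 reads per library. The members held 0.517% to 0.615% of the reads, with 399 to 11023 reads per member and library. With sgKLHL14 both DMSO libraries (23467110 and 22189713 reads) were deeper than both ibrutinib libraries (16843591 and 12333876). With sgCTRL depth overlapped, at 13497206 and 23152352 in DMSO and 16520319 and 13331861 in ibrutinib. The part of depth in the changes was not tested. KLHL14 mRNA ranged from 12.06 to 12.33 (log2 normalised reads) in the libraries other than sgKLHL14 in ibrutinib, and was 13.16 in each of those. An edited gene can still be transcribed, so this level does not check the guide, and the guide names are used as labelled. The 5 B cell markers MS4A1, CD79A, CD79B, PAX5 and CD22 were all expressed, with summed levels of 2817 to 3056 CPM (reads scaled to the library total) in DMSO and 4067 to 4295 in ibrutinib. Markers of other cell types were low: the T cell list of 5 genes summed to 1.68 to 2.07 CPM in DMSO and 3.39 to 3.89 in ibrutinib, with CD3D and CD3E at 0, the myeloid list of 4 to 0.568 to 1.20 over all libraries, and the epithelium or fibroblast list of 5 to 5.48 to 7.00 in DMSO and 10.4 to 13.8 in ibrutinib. The list of activated B cell-like lymphoma genes (IRF4, BATF, FOXP1, CCND2 and PIM1) summed to 2939 to 3317 CPM in DMSO and 1889 to 2425 in ibrutinib. The B cell, T cell and fibroblast sums were higher and the sum of the activated B cell-like list was lower in every ibrutinib library than in every DMSO library. The 5 genes of the latter list did not move together. With each guide 2 were called lower, 2 were not called and 1, PIM1, was called higher (log2 change 0.29 and 0.20). The PIM1 change with sgKLHL14 was 0.16 without sgKLHL14 DMSO replicate 2 and 0.15 without sgKLHL14 ibrutinib replicate 1. Its call with sgKLHL14 was lost in both of these runs. It was also lost in the limma fit without the mean-variance trend (adjusted p = 0.068). The median log2 change of the list was -0.056 with sgCTRL and -0.017 with sgKLHL14. Their part in the proteasome results was not tested.

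Some of the proteasome mRNAs fell with ibrutinib, and none was called higher with either guide. A call here is a p under 0.05, after Benjamini-Hochberg adjustment, in a limma fit of all 12531 genes kept after a filter on low values, which all 40 members passed. With sgCTRL, 12 of 40 members fell and 0 rose, where 17% of all genes fell and 18.1% rose (35.1% called either way). With sgKLHL14, 24 of 40 fell and 0 rose, where 19.4% of all genes fell and 19.9% rose (39.3% either way). The other 28 members with sgCTRL and 16 with sgKLHL14 were not called. The median log2 change over the members was -0.14 with sgCTRL and -0.19 with sgKLHL14, against 0.018 and 0.01 over all genes, and the sgKLHL14 median was -0.12 without sgKLHL14 ibrutinib replicate 2. In bulk RNA, fewer cells that express a gene and less of its RNA per cell cannot be told apart. Without single libraries the sgCTRL count ran from 8 to 17. The sgKLHL14 count ran from 12 to 24, with 13 left without sgKLHL14 DMSO replicate 1 and 12 without sgKLHL14 ibrutinib replicate 2.

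**Figure D1:**
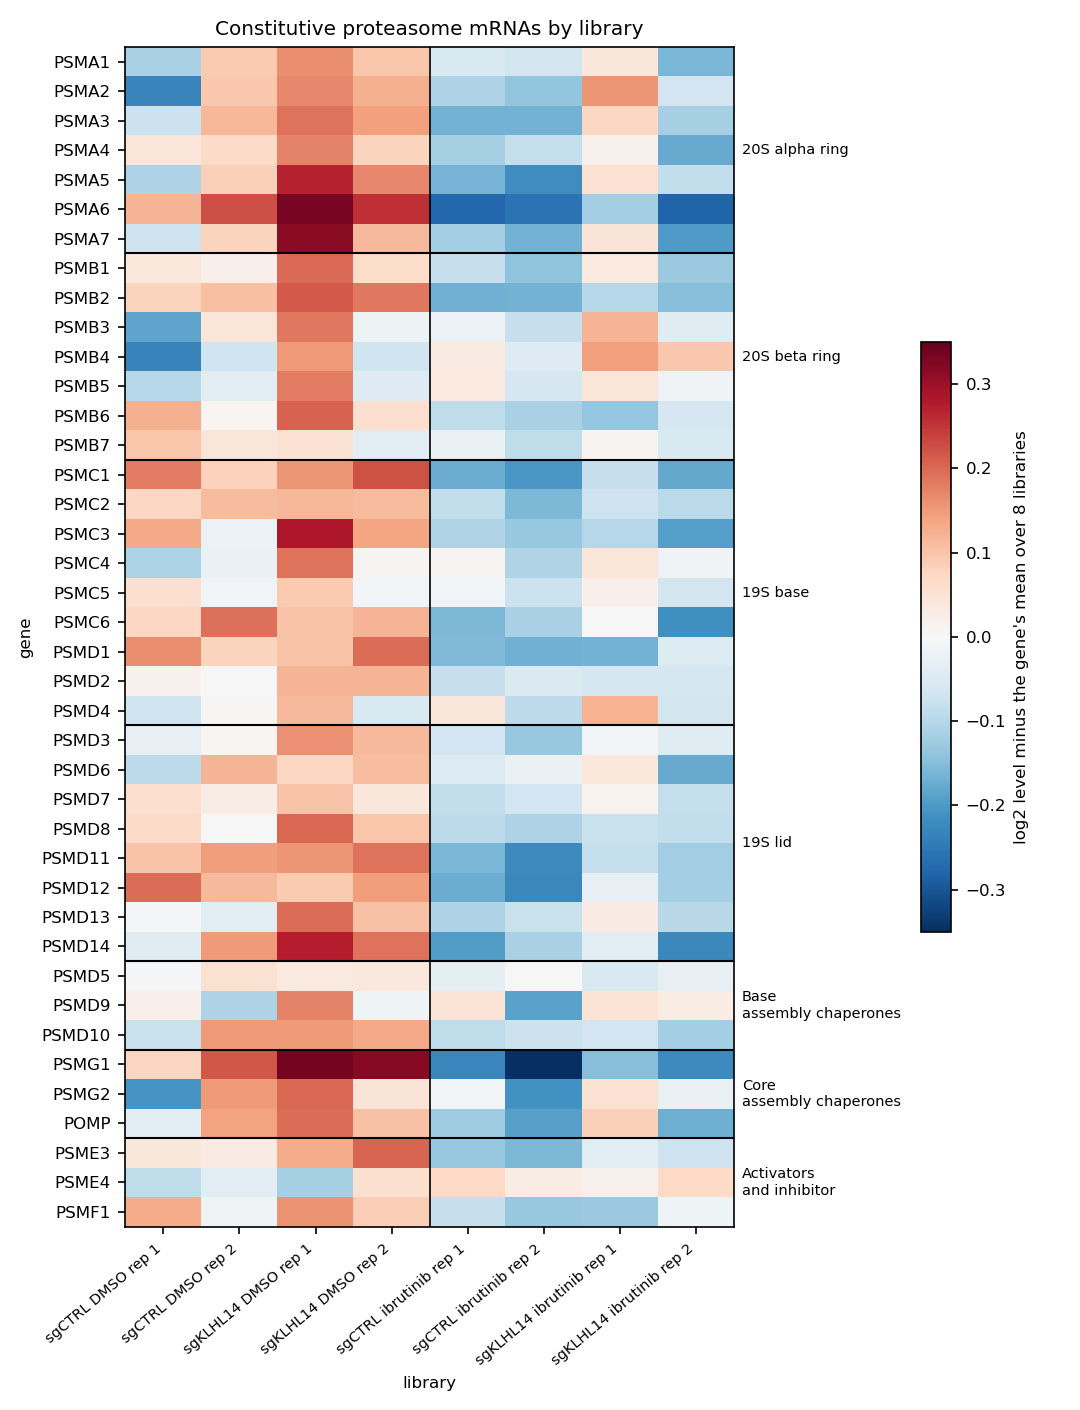
Level of each of the 40 genes (rows, grouped by role) in each of the 8 libraries (columns), as log2 normalised reads minus the mean of the gene over the libraries. In 11 rows all 4 DMSO columns are red (above the mean) and all 4 ibrutinib columns blue. This pattern was not counted over all genes. In all 7 alpha ring rows sgCTRL DMSO replicate 1 is bluer than replicate 2.

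The same direction is seen in the libraries themselves. Both ibrutinib libraries lay below both DMSO libraries for 26 of 40 members with sgCTRL, where 33.1% of all genes did, and for 29 of 40 with sgKLHL14, where 33.1% did. Both lay above for 2 members with sgCTRL (PSMB4 and PSME4; 36.7% of all genes) and for 0 with sgKLHL14 (34.7%). The members together took 0.561% and 0.581% of reads with sgCTRL in DMSO and 0.527% and 0.517% in ibrutinib. With sgKLHL14 they took 0.615% and 0.599% in DMSO and 0.550% and 0.527% in ibrutinib. In each guide's cells, both ibrutinib shares were below both DMSO shares.

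**Figure D2:**
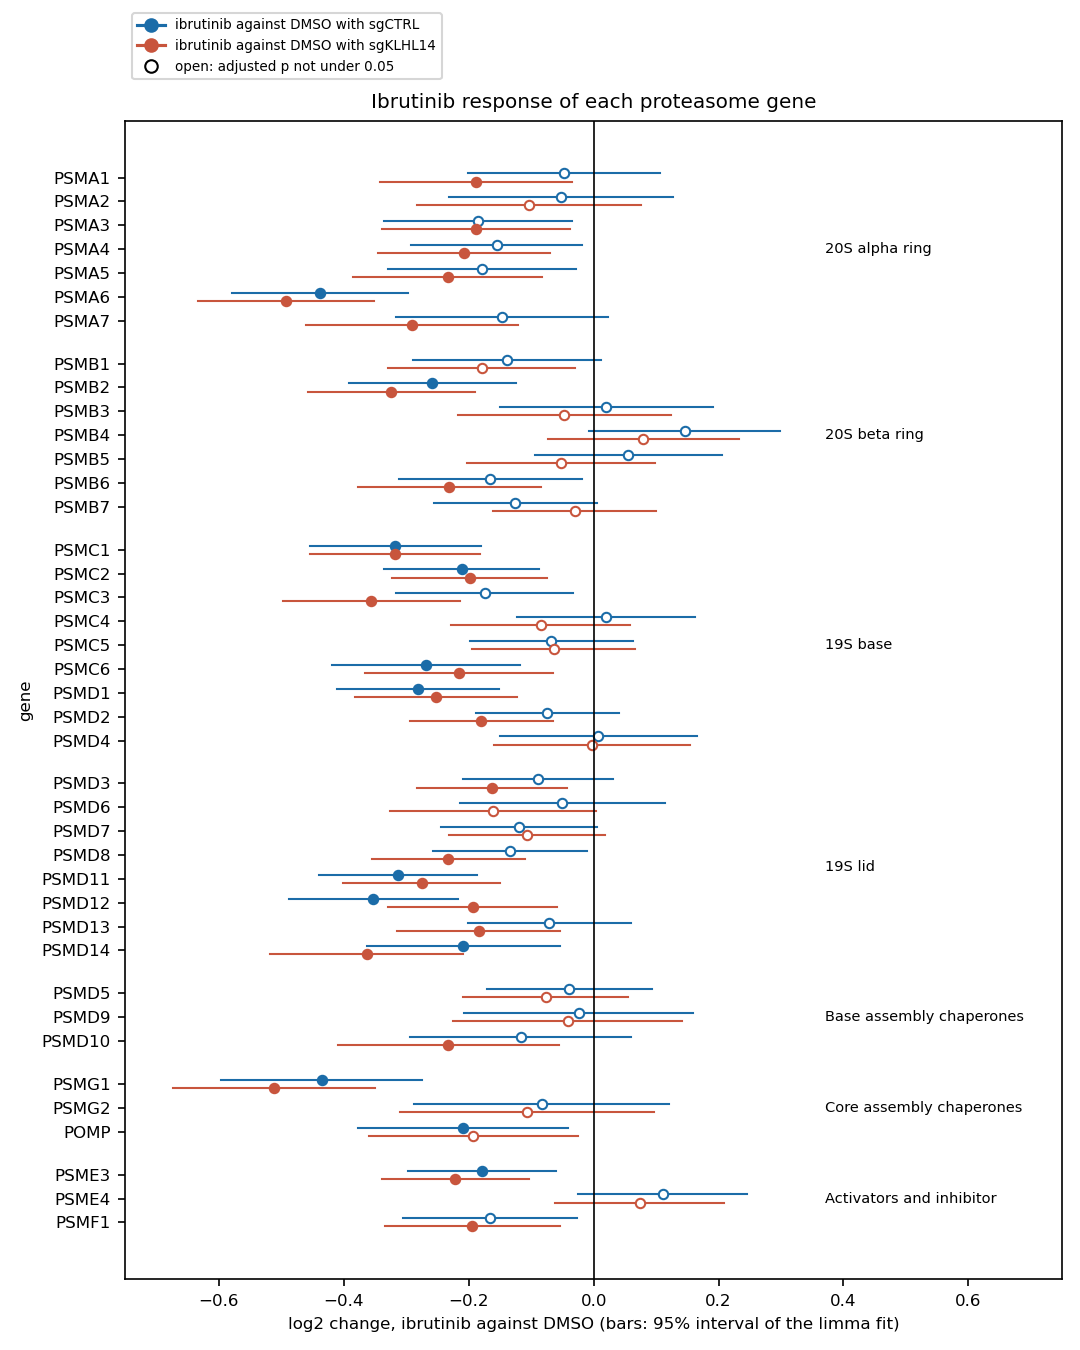
Log2 change of each gene in ibrutinib against DMSO (x axis; points with 95% intervals of the limma fit) with sgCTRL (blue) and sgKLHL14 (red), and filled points for adjusted p under 0.05. All filled points lie left of 0, and PSMA6 and PSMG1 lie farthest left with both guides.

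In the alpha ring, which forms the gate of the core, 1 of 7 genes fell with sgCTRL (14.3%, against 17% of all genes). With sgKLHL14 6 of 7 fell (85.7%, against 19.4%). The median log2 changes were -0.16 and -0.21. These medians were -0.083 without sgCTRL DMSO replicate 2 and -0.11 without sgKLHL14 ibrutinib replicate 2. PSMA6, an alpha ring subunit, stood at 11.80 and 11.90 with sgCTRL in DMSO, 12.01 and 11.93 with sgKLHL14 in DMSO, 11.40 and 11.42 with sgCTRL in ibrutinib and 11.56 and 11.40 with sgKLHL14 in ibrutinib (log2 normalised reads). All 4 ibrutinib libraries were below all 4 DMSO libraries. Its log2 change was -0.44 (SE 0.067, adjusted p = 4.74e-05) with sgCTRL and -0.49 (SE 0.067, adjusted p = 1.05e-05) with sgKLHL14, or -26.2% and -28.9% on the linear scale. The other 5 alpha ring calls, made with sgKLHL14, were PSMA1, PSMA3, PSMA4, PSMA5 and PSMA7, with log2 changes from -0.29 (PSMA7) to -0.19 (PSMA3), and none of them was called with sgCTRL (-0.19 for PSMA3 to -0.048 for PSMA1). All 5 of these calls were lost without sgKLHL14 DMSO replicate 1 (for PSMA7, log2 change -0.19, adjusted p = 0.11) and without sgKLHL14 ibrutinib replicate 2 (for PSMA7, -0.17, adjusted p = 0.17). PSMA1 and PSMA3 were also lost without sgKLHL14 DMSO replicate 2 (adjusted p = 0.0525 and 0.0594), and without sgCTRL ibrutinib replicate 1 or 2 (adjusted p of 0.0639 to 0.068). PSMA2 was called with neither guide (-0.052 and -0.10).

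The beta ring holds the cutting sites, and 1 of its 7 genes fell with sgCTRL (14.3%, against 17% of all genes). With sgKLHL14 2 fell (28.6%, against 19.4%). The median log2 changes were -0.13 and -0.052. The sgKLHL14 median was 0.015 and -0.16 without sgKLHL14 DMSO replicates 1 and 2, and -0.13 and -0.025 without sgKLHL14 ibrutinib replicates 1 and 2, so its sign rests on the libraries used. PSMB2, a structural beta subunit without a cutting site, fell with both guides. Its levels were 11.04 and 11.07 with sgCTRL in DMSO, 11.18 and 11.15 with sgKLHL14 in DMSO, 10.79 and 10.80 with sgCTRL in ibrutinib and 10.86 and 10.81 with sgKLHL14 in ibrutinib. Every ibrutinib library was below every DMSO library, and the log2 change was -0.26 (SE 0.064, adjusted p = 0.00371) with sgCTRL and -0.32 (SE 0.064, adjusted p = 0.000469) with sgKLHL14.

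Among the catalytic subunits, PSMB6, which carries the caspase-like site, stood at 11.28 and 11.16 with sgCTRL in DMSO, 11.36 and 11.22 with sgKLHL14 in DMSO, 11.07 and 11.04 with sgCTRL in ibrutinib and 11.02 and 11.10 with sgKLHL14 in ibrutinib. Its ibrutinib libraries were below its DMSO libraries with each guide, but the change passed the test only in the sgKLHL14 comparison: -0.17 (SE 0.07, adjusted p = 0.0727) with sgCTRL and -0.23 (SE 0.07, adjusted p = 0.0128) with sgKLHL14. The PSMB6 call was lost without sgKLHL14 DMSO replicate 1 (-0.16, adjusted p = 0.136) and without sgKLHL14 ibrutinib replicate 1 (-0.19, adjusted p = 0.0909).

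PSMB5, which carries the chymotrypsin-like site inhibited by bortezomib, stood at 11.56 and 11.63 with sgCTRL in DMSO, 11.84 and 11.62 with sgKLHL14 in DMSO, 11.70 and 11.60 with sgCTRL in ibrutinib and 11.70 and 11.65 with sgKLHL14 in ibrutinib. DMSO and ibrutinib libraries overlapped with either guide, and the log2 change was 0.056 (SE 0.072, adjusted p = 0.579) with sgCTRL and -0.052 (SE 0.072, adjusted p = 0.598) with sgKLHL14. The 95% intervals of the PSMB5 change were -0.095 to 0.21 and -0.20 to 0.098. PSMB7, which carries the trypsin-like site, stood at 11.79 and 11.73 with sgCTRL in DMSO, 11.74 and 11.65 with sgKLHL14 in DMSO, 11.66 and 11.60 with sgCTRL in ibrutinib and 11.70 and 11.64 with sgKLHL14 in ibrutinib. Its groups were apart with sgCTRL and overlapped with sgKLHL14, and neither change passed the test: -0.13 (SE 0.062, adjusted p = 0.126) with sgCTRL and -0.03 (SE 0.062, adjusted p = 0.73) with sgKLHL14. PSMB4, a structural beta subunit, was the member with the largest increase in ibrutinib with either guide, 0.15 and 0.08, and passed the test in neither comparison (adjusted p = 0.131 and 0.413).

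In the base, 4 of 9 genes fell with sgCTRL (44.4%, against 17% of all genes): PSMC1, PSMC2, PSMC6 and PSMD1. With sgKLHL14 6 fell (66.7%, against 19.4%), the same genes with PSMC3 and PSMD2. The median log2 changes were -0.17 and -0.20. PSMC1, an ATPase of the unfolding ring, stood at 11.53 and 11.43 with sgCTRL in DMSO, 11.51 and 11.57 with sgKLHL14 in DMSO, 11.18 and 11.15 with sgCTRL in ibrutinib and 11.27 and 11.17 with sgKLHL14 in ibrutinib. All ibrutinib libraries were below all DMSO libraries, and the log2 change was -0.32 (SE 0.065, adjusted p = 0.00084) with sgCTRL and -0.32 (SE 0.065, adjusted p = 0.000697) with sgKLHL14. PSMC3, another ATPase of the ring, stood at 12.30 and 12.15 with sgCTRL in DMSO, 12.46 and 12.31 with sgKLHL14 in DMSO, 12.07 and 12.04 with sgCTRL in ibrutinib and 12.07 and 11.98 with sgKLHL14 in ibrutinib. Its ibrutinib libraries were also the lower ones with each guide, by a log2 change of -0.17 (SE 0.068, adjusted p = 0.0519) with sgCTRL and -0.36 (SE 0.068, adjusted p = 0.000339) with sgKLHL14.

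PSMD1, a large scaffold subunit of the base, changed by -0.28 and -0.25 with sgCTRL and sgKLHL14, and the ATPase genes PSMC6 by -0.27 and -0.21 and PSMC2 by -0.21 and -0.20 (all called). PSMD2, the other large scaffold subunit, changed by -0.18 with sgKLHL14 and by -0.074 with sgCTRL, where it was not called. PSMC4, PSMC5 and PSMD4, the last a ubiquitin receptor, were called with neither guide, with log2 changes between -0.085 and 0.019. The median of the base with sgCTRL was -0.098 without sgCTRL DMSO replicate 1. With sgCTRL the PSMC2 call was lost without sgCTRL DMSO replicate 2 (adjusted p = 0.054) or sgCTRL ibrutinib replicate 2 (adjusted p = 0.136), and the PSMC6 call without sgCTRL DMSO replicate 2 (adjusted p = 0.0833) or sgCTRL ibrutinib replicate 1 (adjusted p = 0.0681). With sgKLHL14 the calls of PSMC2, PSMC6 and PSMD2 were lost without sgKLHL14 ibrutinib replicate 2 (adjusted p = 0.0638, 0.331 and 0.0511), and that of PSMC6 also without sgKLHL14 DMSO replicate 1 (adjusted p = 0.0505) or 2 (adjusted p = 0.0716).

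In the lid, 3 of 8 genes fell with sgCTRL (37.5%, against 17% of all genes): PSMD11, PSMD12 and PSMD14. With sgKLHL14 6 fell (75%, against 19.4%), the same genes with PSMD3, PSMD8 and PSMD13. The median log2 changes were -0.13 and -0.19. PSMD12, a scaffold subunit of the lid, stood at 11.51 and 11.42 with sgCTRL in DMSO, 11.40 and 11.46 with sgKLHL14 in DMSO, 11.14 and 11.09 with sgCTRL in ibrutinib and 11.28 and 11.19 with sgKLHL14 in ibrutinib. Ibrutinib libraries were below DMSO libraries with each guide, and the log2 change was -0.35 (SE 0.065, adjusted p = 0.000291) with sgCTRL and -0.19 (SE 0.065, adjusted p = 0.0232) with sgKLHL14. PSMD14, the enzyme that cuts the ubiquitin chain from the substrate, stood at 12.04 and 12.23 with sgCTRL in DMSO, 12.35 and 12.27 with sgKLHL14 in DMSO, 11.88 and 11.96 with sgCTRL in ibrutinib and 12.04 and 11.85 with sgKLHL14 in ibrutinib. Here too the ibrutinib libraries of each guide were below its DMSO libraries, by a log2 change of -0.21 (SE 0.074, adjusted p = 0.0337) with sgCTRL and -0.36 (SE 0.074, adjusted p = 0.000614) with sgKLHL14. The sgCTRL call of PSMD14 was lost without sgCTRL DMSO replicate 2 (-0.11, adjusted p = 0.334) and without sgCTRL ibrutinib replicate 1 (adjusted p = 0.228) or 2 (adjusted p = 0.0664). With sgKLHL14, the PSMD12, PSMD13 and PSMD3 calls were lost without sgKLHL14 ibrutinib replicate 2 (adjusted p = 0.174, 0.236 and 0.135), those of PSMD13 and PSMD3 without sgKLHL14 DMSO replicate 1 (adjusted p = 0.154 and 0.121), and that of PSMD12 without sgKLHL14 DMSO replicate 2 (adjusted p = 0.102). PSMD3 was also lost without sgKLHL14 ibrutinib replicate 1 (adjusted p = 0.0587) or sgCTRL ibrutinib replicate 1 or 2 (adjusted p = 0.0605 and 0.0604). PSMD11, a scaffold subunit that contacts the core, changed by -0.31 with sgCTRL and -0.28 with sgKLHL14. PSMD6 and PSMD7 were called with neither guide.

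Set side by side with sgCTRL, 2 of 14 core genes, 4 of 9 base genes and 3 of 8 lid genes fell, with medians of -0.14, -0.17 and -0.13. With sgKLHL14 the counts were 8 of 14, 6 of 9 and 6 of 8, with medians of -0.19, -0.20 and -0.19. The shares were 14.3%, 44.4% and 37.5% with sgCTRL, against 17% of all genes. With sgKLHL14 they were 57.1%, 66.7% and 75%, against 19.4%. The 20S core median with sgCTRL was -0.087 without sgCTRL DMSO replicate 2. With sgKLHL14 it was -0.27 without sgKLHL14 ibrutinib replicate 1 and -0.096 without sgKLHL14 ibrutinib replicate 2. The difference between the classes was not tested.

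**Figure D3:**
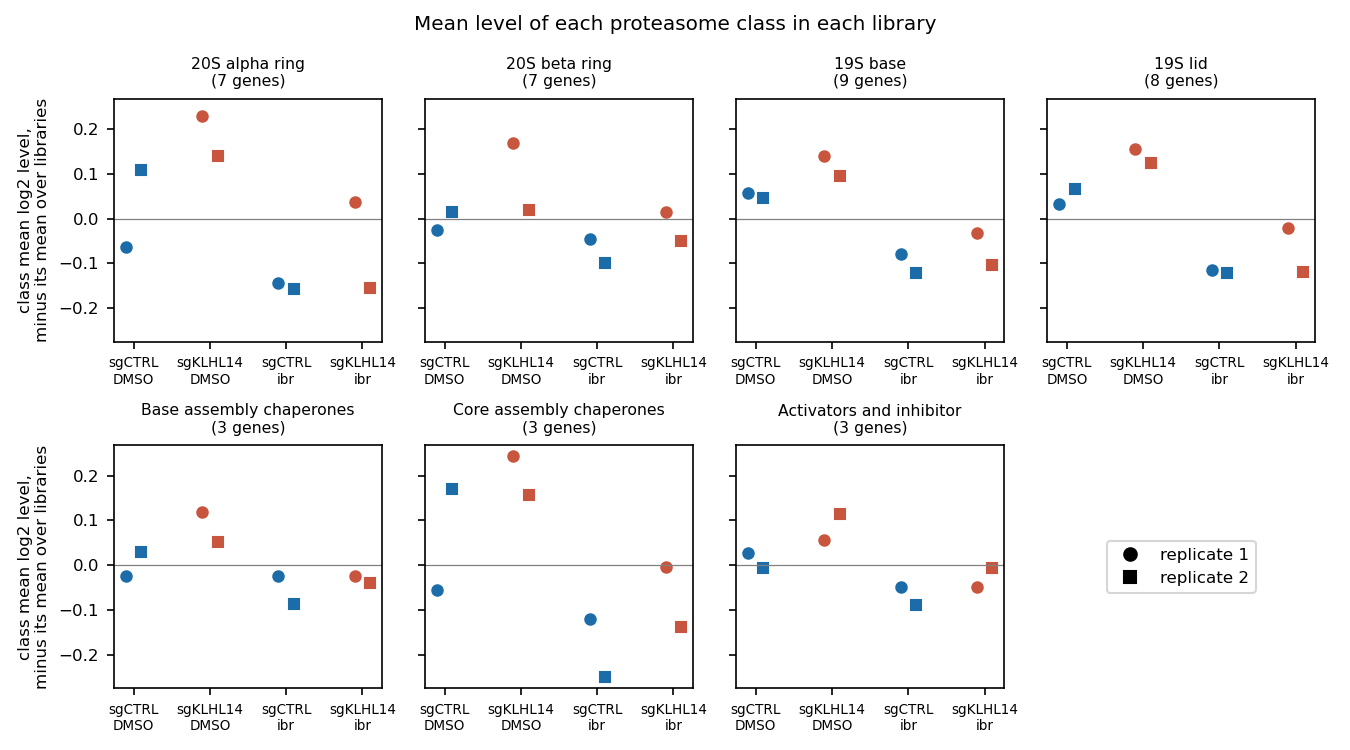
Mean log2 level of each class in each library, minus its mean over the 8 libraries (y axis), by group (x axis), with circles for replicate 1 and squares for replicate 2. Base and lid fall apart into higher DMSO and lower ibrutinib libraries. In the alpha ring, the beta ring and the core assembly chaperones this holds within each guide only. There sgKLHL14 ibrutinib replicate 1 stands above sgCTRL DMSO replicate 1.

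Of the chaperones of core assembly, which build the alpha ring and mature the beta ring, PSMG1 showed a decrease close to that of PSMA6. PSMG1, which starts alpha ring assembly together with PSMG2, stood at 10.39 and 10.53 with sgCTRL in DMSO, 10.64 and 10.63 with sgKLHL14 in DMSO, 10.08 and 9.96 with sgCTRL in ibrutinib and 10.16 and 10.09 with sgKLHL14 in ibrutinib. All ibrutinib libraries were below all DMSO libraries, and the log2 change was -0.44 (SE 0.077, adjusted p = 0.000204) with sgCTRL and -0.51 (SE 0.077, adjusted p = 3.04e-05) with sgKLHL14, or -26.1% and -29.9% on the linear scale. Its partner PSMG2 was called with neither guide (-0.083 and -0.11). POMP, the chaperone of beta ring maturation, was close to the threshold: -0.21 (SE 0.08, adjusted p = 0.0494) with sgCTRL and -0.19 (SE 0.08, adjusted p = 0.0639) with sgKLHL14. Leaving out sgCTRL DMSO replicate 2, sgCTRL ibrutinib replicate 1 or sgCTRL ibrutinib replicate 2 ended the POMP call (adjusted p = 0.365, 0.0987 and 0.24).

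Of the 3 chaperones of base assembly, 0 fell with sgCTRL (17% of all genes did) and 1 with sgKLHL14 (33.3%, against 19.4%). That gene, PSMD10 (the oncoprotein gankyrin), stood at 9.81 and 10.04 with sgCTRL in DMSO, 10.04 and 10.02 with sgKLHL14 in DMSO, 9.80 and 9.81 with sgCTRL in ibrutinib and 9.82 and 9.77 with sgKLHL14 in ibrutinib. DMSO and ibrutinib libraries overlapped with sgCTRL and were apart with sgKLHL14, and the log2 change was -0.12 (SE 0.084, adjusted p = 0.302) with sgCTRL and -0.23 (SE 0.084, adjusted p = 0.0351) with sgKLHL14. The call was lost without any 1 of 6 libraries, with adjusted p from 0.0513 without sgCTRL ibrutinib replicate 1 or 2 to 0.155 without sgKLHL14 ibrutinib replicate 2. In between were 0.108 and 0.0788 without sgKLHL14 DMSO replicates 1 and 2, and 0.0642 without sgKLHL14 ibrutinib replicate 1. PSMD5 and PSMD9 were called with neither guide, with log2 changes between -0.076 and -0.024.

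Among the genes that regulate the core, PSME3, which encodes the nuclear activator PA28 gamma, fell with both guides. It stood at 12.87 and 12.86 with sgCTRL in DMSO, 12.96 and 13.03 with sgKLHL14 in DMSO, 12.70 and 12.67 with sgCTRL in ibrutinib and 12.79 and 12.76 with sgKLHL14 in ibrutinib. All ibrutinib libraries were below all DMSO libraries, and the log2 change was -0.18 (SE 0.056, adjusted p = 0.0186) with sgCTRL and -0.22 (SE 0.056, adjusted p = 0.00407) with sgKLHL14. With sgCTRL the call was lost without each of the 4 sgCTRL libraries: the adjusted p was 0.0748 and 0.0522 without DMSO replicates 1 and 2, and 0.0948 and 0.151 without ibrutinib replicates 1 and 2. PSMF1, an inhibitor of the core in vitro, changed by -0.17 (adjusted p = 0.0592) with sgCTRL and by -0.19 (adjusted p = 0.0265) with sgKLHL14. The latter was lost without sgKLHL14 DMSO replicate 1 (adjusted p = 0.13) or sgKLHL14 ibrutinib replicate 1 (adjusted p = 0.194). PSME4, which encodes the activator PA200, changed by 0.11 and 0.073 and was not called.

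The log2 changes in ibrutinib with the 2 guides share no library, so they can be set against each other. The calls are not separate tests, since they share 1 estimate of each gene's spread over all 8 libraries. Called lower with both guides were 11 of 40 members, where 13.8% of all genes were: PSMA6, PSMB2, PSMC1, PSMC2, PSMC6, PSMD1, PSMD11, PSMD12, PSMD14, PSMG1 and PSME3. Another 13 were called with sgKLHL14 alone and 1, POMP, with sgCTRL alone. Across the 40 genes the log2 changes had a Pearson r of 0.86 and a Spearman rho of 0.83, and across all 12531 genes 0.85 and 0.81. Genes are not independent replicates, and these values are descriptive. The log2 change was below 0 with both guides for 34 members, where 39.6% of all genes were, and lower with sgKLHL14 than with sgCTRL for 31, where 51.1% were.

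**Figure D4:**
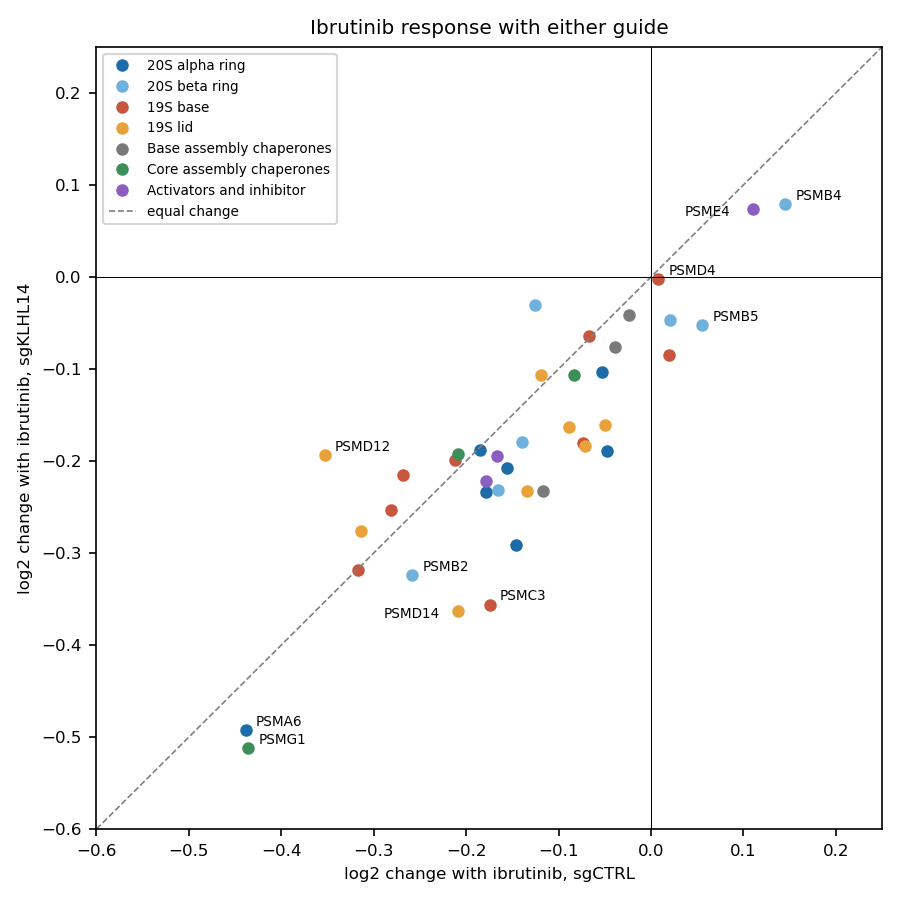
Log2 change in ibrutinib with sgKLHL14 (y axis) against that with sgCTRL (x axis) for each of the 40 genes, coloured by role, with a dashed line of equal change. PSMA6 and PSMG1 lie at the lower left, PSMB4 and PSME4 at the upper right, and 31 points lie below the dashed line.

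The difference between the responses was tested as such, and 0 of 40 members were called, with 0 at an unadjusted p under 0.05 (0.0239% of all genes called, and 5.69% at the unadjusted p). The fit of recovered reads with limma-voom also called 0. The median difference over the members was -0.052. It was -0.10 and -0.093 without sgKLHL14 ibrutinib replicate 1 or sgKLHL14 DMSO replicate 2. It was between -0.029 and -0.0095 without sgKLHL14 ibrutinib replicate 2, sgCTRL ibrutinib replicate 1, sgCTRL DMSO replicate 1 or sgKLHL14 DMSO replicate 1. The 3 members with the smallest p were PSMC3, PSMD12 and PSMD14. The fall of PSMC3 was larger with sgKLHL14 by a log2 difference of -0.18 (95% interval -0.38 to 0.019, adjusted p = 0.907). The difference was 0.16 (-0.032 to 0.35, adjusted p = 0.922) for PSMD12 and -0.15 (-0.37 to 0.063, adjusted p = 0.936) for PSMD14. Members called with 1 guide and not with the other are therefore not shown to respond differently.

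The KLHL14 guide alone gave no called member. In DMSO, 0 of 40 passed the adjusted threshold (1.64% of all genes called) and 11 had an unadjusted p under 0.05, each higher with sgKLHL14, where 13.8% of all genes had such a p and 7.08% were also higher. Both sgKLHL14 libraries lay above both sgCTRL libraries for 20 of 40 members, where 21.5% of all genes did, and below for 0, where 20.2% did. The median log2 difference was 0.11, and it was 0.068 without sgCTRL DMSO replicate 1. This comparison shares its DMSO libraries with the ibrutinib comparisons. The limma-voom fit also called 0, and 1 member (PSMA2) was called without sgCTRL DMSO replicate 2 and 3 (PSMA7, PSMB4 and PSMC4) without sgKLHL14 DMSO replicate 2.

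The smallest p in DMSO belonged to PSMA5, PSMD13 and PSMB4. PSMA5, an alpha ring subunit, stood at 11.58 and 11.78 with sgCTRL in DMSO, 11.96 and 11.86 with sgKLHL14 in DMSO, 11.53 and 11.47 with sgCTRL in ibrutinib and 11.74 and 11.61 with sgKLHL14 in ibrutinib. The sgKLHL14 libraries were the higher ones in each treatment, by a log2 difference of 0.23 (SE 0.072, adjusted p = 0.136) in DMSO and 0.17 (SE 0.072, adjusted p = 0.286) in ibrutinib. PSMD13, a lid subunit, stood at 12.03 and 12.00 with sgCTRL in DMSO, 12.23 and 12.13 with sgKLHL14 in DMSO, 11.93 and 11.95 with sgCTRL in ibrutinib and 12.06 and 11.93 with sgKLHL14 in ibrutinib. Its guide groups were apart in DMSO, by 0.17 (SE 0.062, adjusted p = 0.209), and overlapped in ibrutinib. PSMB4 stood at 12.04 and 12.20 with sgCTRL in DMSO, 12.42 and 12.20 with sgKLHL14 in DMSO, 12.30 and 12.22 with sgCTRL in ibrutinib and 12.41 and 12.36 with sgKLHL14 in ibrutinib. Its guide groups overlapped in DMSO, where the log2 difference was 0.19 (SE 0.073, adjusted p = 0.231), since 1 library of each guide stood at 12.20.

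In ibrutinib, 0 of 40 members passed the threshold (2.38% of all genes called), 1 had an unadjusted p under 0.05 (PSMA5, where 12.9% of all genes had one), and the limma-voom fit called 0. Both sgKLHL14 libraries were above both sgCTRL libraries for 11 members, where 21.6% of all genes were, and below for 0, where 22.3% were. The median log2 difference was 0.054, and it was 0.0085 and 0.11 without sgKLHL14 ibrutinib replicates 1 and 2. The next smallest p after PSMA5 belonged to the alpha ring genes PSMA3 and PSMA2. PSMA3 stood at 12.01 and 12.20 with sgCTRL in DMSO, 12.28 and 12.23 with sgKLHL14 in DMSO, 11.92 and 11.92 with sgCTRL in ibrutinib and 12.16 and 11.97 with sgKLHL14 in ibrutinib. PSMA2 stood at 11.81 and 12.14 with sgCTRL in DMSO, 12.21 and 12.17 with sgKLHL14 in DMSO, 11.94 and 11.91 with sgCTRL in ibrutinib and 12.20 and 11.98 with sgKLHL14 in ibrutinib. In both genes the sgKLHL14 libraries were above the sgCTRL libraries in ibrutinib, by 0.14 (SE 0.072, adjusted p = 0.419) and 0.17 (SE 0.086, adjusted p = 0.441).

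Levels of the members varied little between libraries of a group, with an SD of 0.083 (log2 scale, root mean square over the 40 genes and 4 groups), against 0.17 over all genes. They did so together, however. With sgCTRL in DMSO all 7 alpha ring genes were lower in replicate 1 than in replicate 2, with a median difference of -0.19, while the base had a median difference of 0.012. With sgKLHL14 in DMSO all 14 core genes were higher in replicate 1, with a median difference of 0.099. With sgKLHL14 in ibrutinib 35 of 40 members were higher in replicate 1, with a median of 0.08 over all members and 0.19 over the alpha ring. The median over all genes was between 0 and 0.014 in each of the 4 groups. The SD was 0.10 in the alpha ring, 0.083 in the beta ring, 0.070 in the base and 0.065 in the lid. What set these library shifts was not tested.

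Other genes around the proteasome were taken from lists chosen by function. Their counts stand against 17% of all genes called lower and 18.1% higher with sgCTRL. With sgKLHL14 these shares were 19.4% and 19.9%. Of 12 other subunits, assembly and associated factors, 4 fell and 0 rose with sgCTRL, and 6 fell and 0 rose with sgKLHL14, with median log2 changes of -0.099 and -0.18. UCHL5, a deubiquitinase of the 19S particle, changed by -0.43 (SE 0.061, adjusted p = 1.86e-05) with sgCTRL and -0.39 (SE 0.061, adjusted p = 4.68e-05) with sgKLHL14, and TXNL1, a thioredoxin-like protein bound to it, by -0.46 (SE 0.062, adjusted p = 1.15e-05) with sgCTRL and -0.37 (SE 0.062, adjusted p = 0.000111) with sgKLHL14. USP14, another 19S-bound deubiquitinase, changed by -0.16 and -0.25, and KIAA0368 (now ECPAS), a proteasome adaptor, by -0.23 and -0.18 (all called). SHFM1 (now SEM1), a small lid subunit, was called with sgKLHL14 (-0.24, adjusted p = 0.00807) and not with sgCTRL (-0.072). The call of USP14 with sgCTRL ended on leaving out 1 library (adjusted p = 0.128 to 0.295 without sgCTRL DMSO replicate 2, sgCTRL ibrutinib replicate 1 or sgCTRL ibrutinib replicate 2), without the mean-variance trend and with quantile scaling. KIAA0368 lost its call with sgCTRL (adjusted p = 0.0657 without sgCTRL ibrutinib replicate 1) and with sgKLHL14 (adjusted p = 0.054 to 0.12 without sgKLHL14 DMSO replicate 2, sgKLHL14 ibrutinib replicate 1 or sgKLHL14 ibrutinib replicate 2), and SHFM1 with sgKLHL14 (adjusted p = 0.12 without sgKLHL14 ibrutinib replicate 2).

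In the NFE2L1 pathway list of 11 genes, 2 rose and 6 fell with each guide. The share that fell was 54.5%, against 17% and 19.4% of all genes with sgCTRL and sgKLHL14. NFE2L1 itself, the activator of subunit genes, stood at 13.25 and 13.07 with sgCTRL in DMSO, 13.18 and 13.12 with sgKLHL14 in DMSO, 12.52 and 12.53 with sgCTRL in ibrutinib and 12.52 and 12.56 with sgKLHL14 in ibrutinib. All ibrutinib libraries were below all DMSO libraries, and the log2 change was -0.64 (SE 0.063, adjusted p = 1.88e-07) with sgCTRL and -0.61 (SE 0.063, adjusted p = 3.1e-07) with sgKLHL14. NFE2L2, a related factor, changed by -0.42 and -0.39, the small MAF partner MAFK by -0.65 and -0.40, and SEL1L, a component of endoplasmic reticulum degradation, by -0.43 and -0.25 (all called lower with both guides). The small MAF genes MAFG (-0.31 and -0.30) and MAFF were also called lower. MAFF stood at 5.39 and 5.50 with sgCTRL in DMSO, 5.65 and 5.33 with sgKLHL14 in DMSO, 3.88 and 5.02 with sgCTRL in ibrutinib and 4.70 and 4.30 with sgKLHL14 in ibrutinib, with 9 to 43 reads per library. All its ibrutinib libraries were below all its DMSO libraries, and the log2 change was -0.9995 (SE 0.37, adjusted p = 0.0428) with sgCTRL and -0.99 (SE 0.37, adjusted p = 0.0401) with sgKLHL14. SYVN1, the ubiquitin ligase of that pathway, rose by 0.60 and 0.68, and NGLY1, the glycanase that processes the NFE2L1 protein, rose by 0.19 and 0.33. These are mRNA levels, and NFE2L1 activity is known to be set largely by processing of the protein, which was not measured. Leaving out 1 library ended the call of NGLY1 with sgCTRL (adjusted p = 0.0922 to 0.134 without sgCTRL DMSO replicate 1, sgCTRL ibrutinib replicate 1 or sgCTRL ibrutinib replicate 2) and, with sgKLHL14, those of MAFK (adjusted p = 0.0603 to 0.119 without sgKLHL14 DMSO replicate 1 or sgKLHL14 ibrutinib replicate 2) and SEL1L (adjusted p = 0.109 without sgKLHL14 DMSO replicate 2). The MAFF call ended with sgCTRL (adjusted p = 0.0513 to 0.461 without sgCTRL DMSO replicate 1, sgCTRL DMSO replicate 2, sgKLHL14 DMSO replicate 1, sgKLHL14 DMSO replicate 2 or sgCTRL ibrutinib replicate 1), with a log2 change of -0.43 without sgCTRL ibrutinib replicate 1, and with sgKLHL14 (adjusted p = 0.0504 to 0.208 without sgCTRL DMSO replicate 1, sgCTRL DMSO replicate 2, sgKLHL14 DMSO replicate 1, sgKLHL14 DMSO replicate 2 or sgKLHL14 ibrutinib replicate 2). It also ended with either guide without the mean-variance trend.

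**Figure D5:**
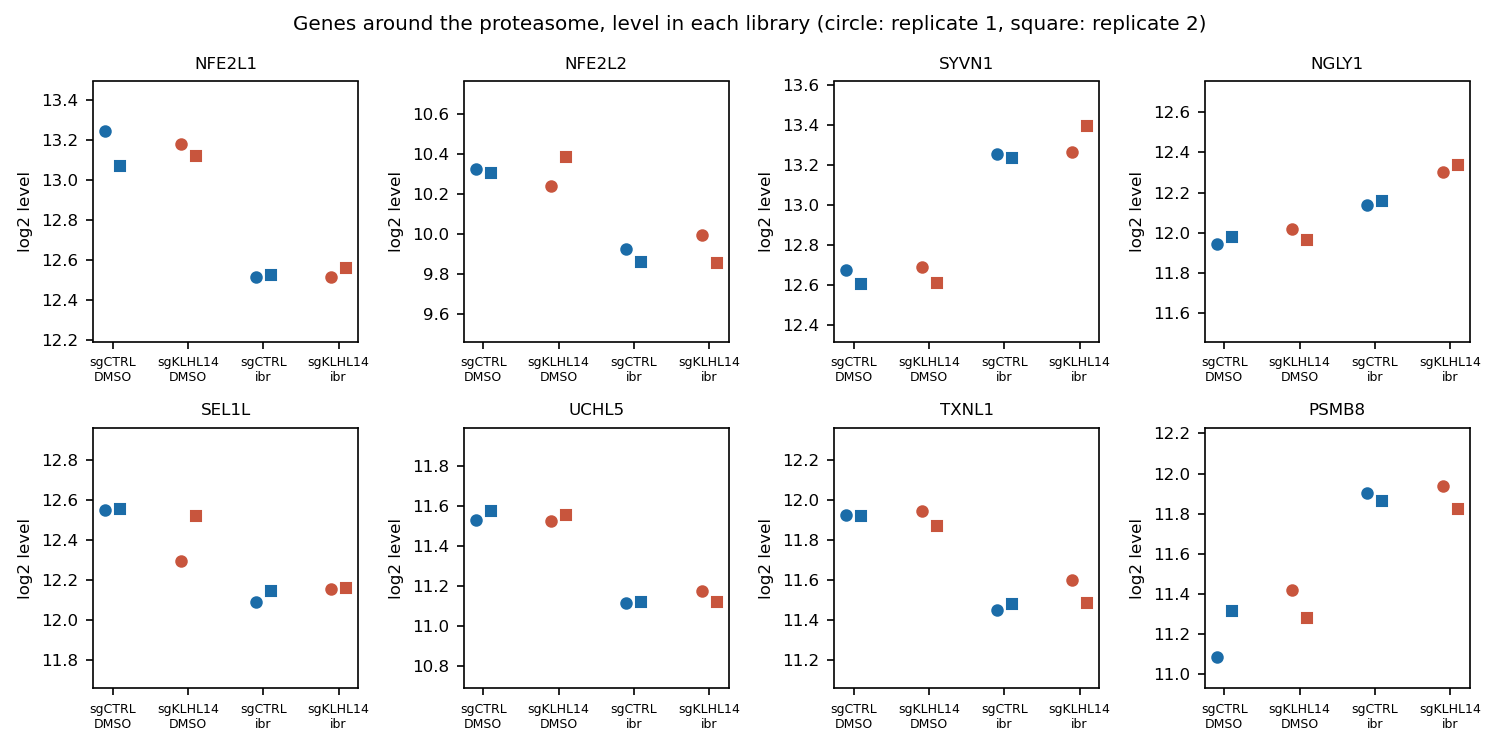
Log2 normalised reads (y axis, each panel spanning the same range around its mean) of 8 genes around the proteasome in each library, by group (x axis), with circles for replicate 1 and squares for replicate 2. In ibrutinib NFE2L1, NFE2L2, SEL1L, UCHL5 and TXNL1 were lower with both guides, and SYVN1, NGLY1 and PSMB8 were higher.

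Of the 5 immunoproteasome and PA28 genes, 2 rose and 1 fell with sgCTRL, and 1 rose and 1 fell with sgKLHL14. The share that fell, 20% with each guide, was near the 17% and 19.4% of all genes. PSMB8, the inducible counterpart of PSMB5, stood at 11.08 and 11.31 with sgCTRL in DMSO, 11.42 and 11.28 with sgKLHL14 in DMSO, 11.90 and 11.86 with sgCTRL in ibrutinib and 11.94 and 11.82 with sgKLHL14 in ibrutinib. Every ibrutinib library was above every DMSO library, and the log2 change was 0.68 (SE 0.076, adjusted p = 9.38e-07) with sgCTRL and 0.53 (SE 0.076, adjusted p = 1.65e-05) with sgKLHL14. PSMB10, the counterpart of PSMB7, rose with sgCTRL (0.25, adjusted p = 0.0141) and was not called with sgKLHL14 (0.042). PSME2, a PA28 subunit, fell (-0.19 and -0.24), and PSMB9, the counterpart of PSMB6, was not called (-0.021 and -0.0075). The calls of PSMB10 with sgCTRL (adjusted p = 0.0911 to 0.166 without sgCTRL DMSO replicate 1 or sgCTRL ibrutinib replicate 2) and of PSME2 with sgCTRL (adjusted p = 0.0695 to 0.153 without sgCTRL DMSO replicate 1, sgCTRL DMSO replicate 2, sgCTRL ibrutinib replicate 1 or sgCTRL ibrutinib replicate 2) and sgKLHL14 (adjusted p = 0.0749 to 0.131 without sgKLHL14 DMSO replicate 1 or sgKLHL14 ibrutinib replicate 2) each ended on leaving out 1 library.

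Of 15 genes for ubiquitin supply and shuttling, 14 were tested, and UBB was listed at 0 in every library. The counting settings were not given, so this 0 does not show that UBB mRNA was absent. With sgCTRL 1 rose and 2 fell, and with sgKLHL14 0 rose and 2 fell. The share that fell, 14.3% with each guide, was below that of all genes (17% and 19.4%). The shuttle factor RAD23B (-0.22 and -0.24), which carries ubiquitin-tagged proteins to the proteasome, fell with both guides, as did FAF1 (-0.33 and -0.37), a cofactor of the segregase VCP. UBA1, the main ubiquitin-activating enzyme, rose with sgCTRL (0.23) and was not called with sgKLHL14 (0.12). Leaving out 1 library ended the sgCTRL calls of RAD23B (adjusted p = 0.0869 without sgCTRL ibrutinib replicate 1) and UBA1 (adjusted p = 0.0559 to 0.067 without sgCTRL ibrutinib replicate 1 or sgCTRL ibrutinib replicate 2). None of the tested genes of these 4 lists was called for the guide in DMSO, for the guide in ibrutinib or for the difference in response.

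Some member counts may hold reads of other genes or lack some of their own. It is not stated how reads that match several genes were counted. Whether counting used strand is not stated either, which bears on overlaps on the opposite strand. In GENCODE release 29, 11 of 40 members have named pseudogenes, among them PSMC1 with 13 and PSMA6 with 4. A gene on the opposite strand overlaps 18 members, and a gene on the same strand overlaps 10. The decreases of PSMA6 and PSMC1 are uncertain to that extent. PSMB2 and PSMG1 are among the 14 members with neither a named pseudogene nor an overlapping gene.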

How the data were processed

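RNA of 8 libraries was measured by stranded poly(A) sequencing of read pairs, per the labels' protocols. The submitters' processing notes name bcl2fastq, STAR, HTSeq and the build hg19. Their versions and settings, and the annotation, were not given in the sources used here. The authors deposited log2 values for 25066 genes and a totals row that entered no test. Each deposited log2 value came out as whole reads multiplied by a library factor (100% of values, tolerance 6e-04 in log2), with 1 read worth 1.16 to 2.19. Files held 0 columns of other samples. Genes with a mean log2 of at least 4.2 were kept (12531). The model was limma-trend with a mean for each of 4 groups (limma 3.58.1, R 4.3.3; 4 residual and 14.9 prior degrees of freedom), 5 contrasts and Benjamini-Hochberg adjustment over all genes within each. No pseudocount entered. A call is an adjusted p under 0.05, SE and 95% intervals come from the fit, and a negative change is lower in ibrutinib, or with sgKLHL14. The fit was tested on simulated data. Their changes were larger than those of the members and they held no shared library shifts, so recovery of changes of the members' size was not tested.

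The members and gene lists were chosen with earlier results of these data known, and 2 listed genes that are no members are not reported here. Levels in every library are given for PSMB5, PSMB6, PSMB7 and, in each class, for the called member with the smallest p and the one with the largest change in each ibrutinib comparison. Where no member was called, they are given for the 3 with the smallest p. From other lists, up to 4 called genes per comparison with the smallest p and NFE2L1 are named. Other members, PSMB10's uncalled value, PSMB9, PSMG2, MAFF and MAFG were named after their values were seen. Alternatives were other filters, scalings and variance models, limma-voom on recovered reads, a replicate block, a pseudocount of 32, and leaving out each library.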

Additional observations from a re-analysis of the deposited data

How the results depend on the processing

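Changes kept their direction where called, and no called change reversed under any alternative run. Of the calls, 7 of 12 with sgCTRL and 10 of 24 with sgKLHL14 held in every alternative run. The sgCTRL count of 12 members was 19 with only the groups compared, and ran from 8 to 17 without single libraries. The sgKLHL14 count of 24 was 12 without the mean-variance trend, and ran from 12 to 24 without single libraries. Without single libraries the medians ran from -0.19 to -0.098 for the base with sgCTRL, from -0.24 to -0.12 for all members and -0.27 to -0.096 for the core with sgKLHL14, from -0.16 to -0.087 for the core with sgCTRL, from 0.068 to 0.15 for the guide in DMSO, from 0.0085 to 0.11 for the guide in ibrutinib, and from -0.10 to -0.0095 for the difference in response. The guide in DMSO called 0 to 3 members without single libraries. The cause of these moves was not tested.

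Over all 12531 genes, same-numbered libraries deviated little together (correlations of -0.055 to 0.12). The members shifted more. Replicate 1 was the lower library for 9 of 40 members with sgKLHL14 in DMSO and 5 with sgKLHL14 in ibrutinib. With sgCTRL it was the lower for 11 in ibrutinib and 25 in DMSO. Over all genes these counts were 5865, 6243, 6166 and 6264. Numbers were not taken to pair libraries, because the labels do not say that they mark a shared culture or day. The fit with a replicate block called 17 members with sgCTRL, 26 with sgKLHL14 and 0 in each other comparison. The block cannot move the medians, since every group holds a library of each replicate number.

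Over the whole table, ibrutinib with sgCTRL called 4403 genes, and 2933 and 2902 without sgCTRL ibrutinib replicates 1 and 2. The guide in DMSO called 206, and 25 without the trend, 368 with the replicate block, and 64, 76 and 530 without sgCTRL DMSO replicate 1 and sgKLHL14 DMSO replicates 1 and 2. The guide in ibrutinib called 298, and 95 without the trend, 144 and 122 without sgCTRL ibrutinib replicates 1 and 2, and 171 and 180 without sgKLHL14 ibrutinib replicates 1 and 2. The difference called 3, 0 without the trend and 5 with the block. With 2 libraries a group, ibrutinib changes much under 0.2 on the log2 scale were near the limit of what was called. This limit does not hold for the guide or for the difference in response. PSMA5 at 0.23 for the guide in DMSO was not called (adjusted p = 0.136 in the limma fit). The SE of the difference ran from 0.077 to 0.14 over the members, against 0.055 to 0.097 in the other comparisons. The 0 member calls there do not show that changes of about 0.2 were absent.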
